A study of Arabidopsis thaliana with 21 samples.

Results

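Roots of Arabidopsis thaliana that received a mock treatment were compared at 12 h and at 6 h of that treatment, to see what changed with time in the absence of the peptide. The comparison used 3 libraries labelled mock at 12 h and 3 labelled mock at 6 h, 6 of the 21 libraries in the series. The other 15 libraries were from roots sampled before treatment (0 h), from mock roots at 24 h and from roots treated with AtCEP5, a member of the small CEP peptides that plants use as signals, for 6, 12 or 24 h, with 3 libraries in each group. The mock and AtCEP5 libraries of one time were taken after the same number of hours, so the AtCEP5 roots at 12 h and 6 h gave the same time step in libraries that the mock comparison did not use. No genotype, plant age, growth medium or peptide dose is given in the sources used here, nor what the mock solution held or the hour of day of each sampling. Nothing in the labels says that the libraries of a group came from separate cultures, so each p-value below measures the spread between libraries only. That spread was estimated in a model of all 21 libraries, not from the 6 mock libraries alone.

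The 6 libraries held between 10334319 and 13990847 counted reads. Mock 6 h replicate 2 was the shallowest, and 2.196% of its reads fell on ribosomal RNA genes, against 0.270% to 0.440% in the other 5. Each library is labelled as root tissue with root meristem cells as its cell type. All 10 listed markers of the root meristem passed the filter on low counts, as did all 14 of root hairs, all 8 of the endodermis and all 8 of xylem, so the libraries held RNA of mature root cells as well. Markers of photosynthesis, a sign of shoot tissue, summed to 229 to 391 CPM (counts scaled to library size) at 6 h and to 266 to 344 CPM at 12 h.

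In Arabidopsis, ferric iron is reduced at the root surface by the reductase FRO2, and the ferrous iron then enters through IRT1. Both are switched on by the transcription factor FIT when iron is short, while surplus iron is put into ferritin or into the vacuole. Nitrate enters through high-affinity carriers of the NRT2 family, of which NRT2.1 works as a complex with NRT3.1. Abscisic acid, the hormone of drought and salt stress, raises genes for late embryogenesis abundant (LEA) proteins and other protectants of drying cells. The circadian clock is a loop of transcription factors with a morning arm, led by CCA1 and LHY, and an evening arm around TOC1, GI and the ELF genes.

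Few genes passed the test between 6 h and 12 h. Of 19938 genes tested, 144 (0.722%) differed by edgeR's quasi-likelihood test at a Benjamini-Hochberg adjusted p under 0.05, of which 49 (0.246%) were higher and 95 (0.476%) lower at 12 h. At an unadjusted p under 0.05 there were 2210. The genes that rose included 3 of the vacuolar iron transporter family, the ferritin FER1 and the iron uptake genes CYP82C4 and FRO2. Those that fell included NRT2.1, NRT3.1, the dehydration genes KIN1 and RD29B and 3 genes for lipid-transfer-like proteins. As background, the step from before treatment to mock at 6 h called 7724 genes (38.7%) and the step from mock 12 h to mock 24 h called 175 (0.878%), and these comparisons share libraries with the one described here.

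The changes were mostly of moderate size. The median absolute log2 fold change of the 144 genes was 0.93, and 63 of them, 23 higher and 40 lower, changed by at least 1 on the log2 scale. In 143 of the 144 all 3 libraries of one time lay above all 3 of the other. The same held, by value alone, for 8.96% of all genes tested with 12 h higher and for 10.1% with 12 h lower. Genes named below as the largest changes had to meet this condition, so the lack of overlap stated for them adds no support. The median log2 fold change of all genes was 0.011. On log2 FPKM, with limma, the split between directions was different, at 75 higher and 56 lower with a pseudocount of 0.1 and 67 and 70 with a pseudocount of 1. In bulk roots, fewer cells of a type and less RNA per cell cannot be told apart as the source of any of these changes.

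The number of genes called rested on all 6 libraries. Leaving out mock 6 h replicate 1, 2 or 3 gave 62, 30 and 94 genes, and leaving out mock 12 h replicate 1, 2 or 3 gave 45, 37 and 33. The fewest were called without mock 6 h replicate 2, the library with the most ribosomal RNA reads. When ribosomal RNA and organelle genes were left out of the table, 137 genes were called, 136 of them among the 144. No called gene changed direction without a library, but 120 of the 144 lost their call without at least 1. The other 24 passed in each of these fits and in each of the other 10 fits tried: UMAMIT29, CYP82C4, NRT2.1, ZIP5, PP2-A1, SBP2 and 18 genes to which the reference gives no symbol, among them AT1G21140 and AT3G25190 of the vacuolar iron transporter family. Genes named below by their locus alone lack a symbol there and, apart from the locus of the applied peptide, fall outside the rule for naming genes and were chosen after their values were seen. So were ZIP5, ZIP3, ZIFL1, PYL5 and PP2-A1, and the members of lists and families that are named although they did not pass, other than the clock genes and the set genes.

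**Figure D1:**
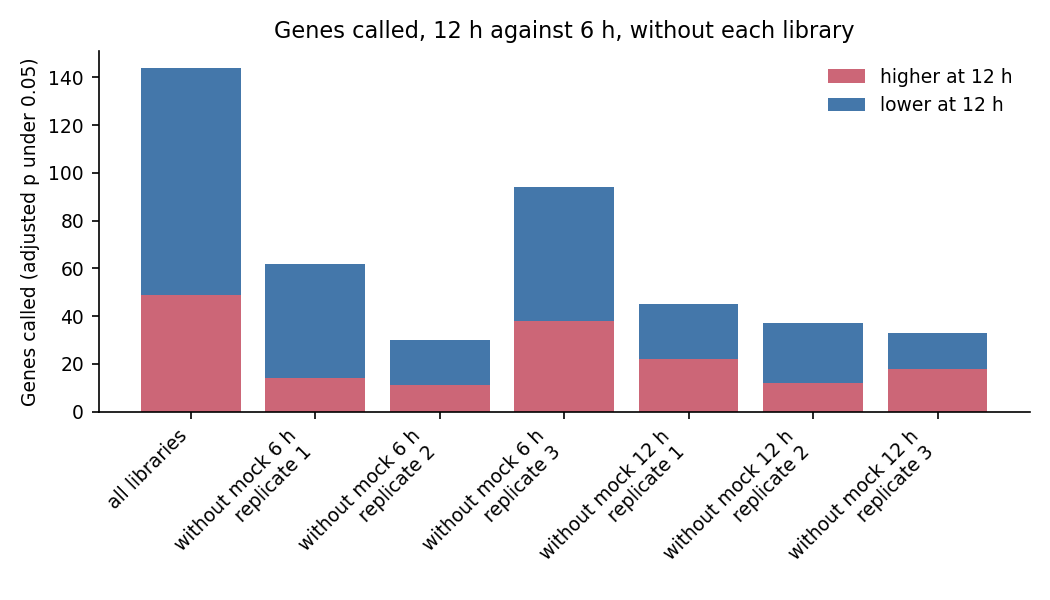
Number of genes called at an adjusted p under 0.05 for mock 12 h against mock 6 h (y axis), with all libraries and without each of the 6 libraries in turn (x axis), split into genes higher and lower at 12 h. The count was 144 with all libraries and between 30 and 94 without 1 of them.

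The iron genes moved in both directions. Of the 17 genes on the iron list that were tested, CYP82C4, FRO2 and FER1 rose and NAS4 fell, while 0.722% of all genes were called. At an unadjusted p under 0.05 there were 12 of the 17, against 2210 of all 19938. The list's median log2 fold change was 0.07 against 0.011 for all genes. The summed level of the list was 1141 to 1464 CPM at 6 h and 1720 to 2045 CPM at 12 h, so the ranges did not overlap. The sum includes IRT1, an abundant member that did not pass. The count of 4 became 2 without mock 6 h replicate 1 or 2 or mock 12 h replicate 1 or 2, 3 without mock 6 h replicate 3 and 1 without mock 12 h replicate 3. With AtCEP5, 3 genes of the list rose and 2 fell over the same time step.

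The 3 genes of the vacuolar iron transporter family that rose are shown first, because all 3 were called in both treatments. They shared this with others, as 17 of the 49 genes that rose in mock were also called higher in AtCEP5. Proteins of the vacuolar iron transporter family move iron across membranes into stores such as the vacuole, as VIT1 does in the embryo. The 250 bases upstream of each annotated gene start were read from the TAIR10.1 assembly, 5′ to 3′ on the strand of the gene, with all 3 genes on the plus strand. The windows are chr1:7404078-7404327 for AT1G21140, chr3:9174148-9174397 for AT3G25190 and chr1:28828993-28829242 for AT1G76800. Capitals mark runs of 8 bases that all 3 windows share, found by comparing every run of the 3 windows on both strands.
AT1G21140: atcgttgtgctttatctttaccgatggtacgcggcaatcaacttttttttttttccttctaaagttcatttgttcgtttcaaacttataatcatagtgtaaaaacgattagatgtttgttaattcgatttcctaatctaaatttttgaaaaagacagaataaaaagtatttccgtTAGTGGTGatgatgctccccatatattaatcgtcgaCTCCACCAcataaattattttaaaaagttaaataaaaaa
AT3G25190: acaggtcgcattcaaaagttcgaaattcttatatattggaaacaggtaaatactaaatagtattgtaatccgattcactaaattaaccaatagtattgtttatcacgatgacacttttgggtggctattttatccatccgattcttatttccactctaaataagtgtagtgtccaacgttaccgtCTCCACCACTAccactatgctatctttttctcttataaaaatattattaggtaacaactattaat
AT1G76800: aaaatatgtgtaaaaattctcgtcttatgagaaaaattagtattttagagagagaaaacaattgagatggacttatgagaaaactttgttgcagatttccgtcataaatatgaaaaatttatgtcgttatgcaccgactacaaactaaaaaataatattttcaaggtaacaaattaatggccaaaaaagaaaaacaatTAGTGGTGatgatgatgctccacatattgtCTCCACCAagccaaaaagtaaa

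No run longer than 8 bases was common to all 3 windows, and 2 runs of that length were. CTCCACCA or its reverse complement TGGTGGAG occurred in 144 of the 19891 windows of tested genes (0.724%), and CACCACTA or its reverse complement TAGTGGTG in 120 (0.603%). Among the 49 genes that rose, 5 held the first run, the 3 above with AT5G14390 and AT4G25290, and 3 held the second, and none of the 95 genes that fell held either. In AT3G25190 the runs overlap. The runs were chosen from these very windows, so their counts among the genes that rose describe the sequences and test nothing.

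AT1G21140 stood at 3.01, 1.52 and 4.67 CPM in the 3 libraries at 6 h and at 13.98, 22.9 and 34.8 CPM at 12 h. AT3G25190 stood at 33.2, 35.4 and 59.1 CPM at 6 h and at 107, 142 and 146 CPM at 12 h. AT1G76800 stood at 5.01, 3.95 and 6.74 CPM at 6 h and at 8.93, 15.3 and 16.2 CPM at 12 h. In each of these genes every library at 12 h lay above every library at 6 h. The log2 fold changes were 2.94 ± 0.40 (SE; edgeR adjusted p = 0.000501) for AT1G21140, 1.63 ± 0.22 (0.000501) for AT3G25190 and 1.36 ± 0.30 (0.0375) for AT1G76800. The call on AT1G76800 was lost without mock 6 h replicate 1 or 2 or mock 12 h replicate 2 or 3. Of the 7 members of the family that were tested these 3 rose, against 0.246% of all genes. VIT1, MEB1, MEB2 and AT4G27870 lay between -0.25 and 0.11 with adjusted p of 0.542 or more. How reads shared by close relatives were counted is not given in the sources used here, which touches this family.

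Before treatment AT3G25190 was higher than at either time, at 210 to 269 CPM, and at 24 h it stood at 96.2 to 118 CPM, which overlaps its range at 12 h. In the AtCEP5 roots the same 3 genes also rose between 6 h and 12 h, with log2 fold changes of 2.79 for AT1G21140, 1.64 for AT3G25190 and 2.15 for AT1G76800 and edgeR adjusted p of 0.00056, 0.00056 and 0.000777. The test of the difference between treatments did not pass for any of the 3 (edgeR adjusted p of 0.995 or more).

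FER1, a ferritin that stores iron in plastids, stood at 52.8, 59.8 and 73.4 CPM at 6 h and at 101, 141 and 190 CPM at 12 h. The groups did not overlap, and the log2 fold change was 1.22 ± 0.22 (edgeR adjusted p = 0.0111). It also rose with AtCEP5, by 1.24 ± 0.22 on the log2 scale (edgeR adjusted p = 0.00766). FER4, another ferritin, was at 9.52 to 14.8 CPM and then at 16.4 to 18.18 CPM, a log2 difference of 0.51 that did not pass (edgeR adjusted p = 0.287). FER1 overlaps a gene on the opposite strand, and whether reads were counted by strand is not given in the sources used here. The call on FER1 was lost without mock 6 h replicate 1 or 2 or mock 12 h replicate 3.

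Of the uptake genes, CYP82C4, a cytochrome P450 that helps make the coumarins which roots secrete to mobilise iron, had the largest change. It stood at 47.0, 20.9 and 31.7 CPM at 6 h and at 149, 186 and 258 CPM at 12 h. All 3 libraries at 12 h were above all 3 at 6 h, and the log2 fold change was 2.57 ± 0.36 (edgeR adjusted p = 0.000797). It passed without each of the 6 libraries, with adjusted p between 0.00198 and 0.0108. The level was 0.322 to 3.31 CPM before treatment and 51.9 to 54.3 CPM at 24 h, so that 12 h was the highest of the 4 mock times.

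FRO2, the ferric reductase, stood at 162, 79.0 and 120 CPM at 6 h and at 257, 296 and 354 CPM at 12 h, a log2 fold change of 1.33 ± 0.28 (edgeR adjusted p = 0.0261). The groups did not overlap. IRT1, the ferrous iron importer, stood at 291, 150 and 261 CPM at 6 h and at 513, 620 and 589 CPM at 12 h without passing (log2 difference 1.29 ± 0.36, edgeR adjusted p = 0.108). Within the 6 h group, FRO2, IRT1, CYP82C4, AT1G21140 and AT3G12900 were each lowest in mock 6 h replicate 2, the library with the most ribosomal RNA reads, and the part of that library's quality in these results was not tested. The call on FRO2 was lost without mock 6 h replicate 2 or 3 or any 1 of the mock 12 h replicates. AT3G12900, annotated as an oxygenase that depends on 2-oxoglutarate and iron, stood at 5.01, 1.01 and 3.63 CPM and then at 15.8, 20.02 and 19.9 CPM, a log2 fold change of 2.50 ± 0.41 (edgeR adjusted p = 0.0037).

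Per length, the highest of these genes at 12 h was IRT1 at a mean of 369 FPKM, against 107 FPKM for FRO2 and 106 FPKM for CYP82C4. The regulators did not pass. FIT1, which encodes FIT, was at 178 to 215 CPM at 6 h and 153 to 155 CPM at 12 h, a log2 difference of -0.38 (edgeR adjusted p = 0.408). BHLH39, a partner of FIT, had a log2 difference of -0.60 (0.284), and PYE, a regulator of iron distribution, had -0.72 (0.0508). BHLH100, of the same subgroup as BHLH39, had a log2 difference of 1.13 (0.0736), opposite in sign.

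NAS4, a synthase of the metal chelator nicotianamine, was the iron gene that fell. It stood at 74.8, 49.7 and 65.8 CPM at 6 h and at 32.2, 28.6 and 20.07 CPM at 12 h, with no overlap and a log2 fold change of -1.24 ± 0.26 (edgeR adjusted p = 0.0267). It fell in the AtCEP5 roots too, by 1.81 on the log2 scale (edgeR adjusted p = 0.00152). The mock call was lost without mock 6 h replicate 1 or 3 or any 1 of the mock 12 h replicates.

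Transporters of other metals outside the list also changed. IREG2, a vacuolar metal transporter, rose from 4.93, 4.15 and 3.11 CPM to 7.38, 11.9 and 9.16 CPM (log2 fold change 1.22 ± 0.22, edgeR adjusted p = 0.0112). HMA3, known as a pump for zinc, cadmium and cobalt at the vacuole, rose from 2.76, 4.66 and 2.25 CPM to 7.45, 8.57 and 8.60 CPM (1.36 ± 0.27, 0.0203). The zinc transporter ZIP5 fell from 24.4, 22.0 and 24.6 CPM to 10.2, 11.7 and 10.8 CPM (-1.12 ± 0.17, 0.00123). Its 6 libraries formed a pair of tight, separate groups, and ZIP5 passed under each alternative tried. ZIP3, a related zinc transporter, fell by 0.76 on the log2 scale (edgeR adjusted p = 0.0236), and ZIFL1, of the zinc-induced facilitator family, by 0.65 (0.0185). IREG2 overlaps a gene on the opposite strand. Its call was lost without mock 6 h replicate 2 or 3 or mock 12 h replicate 2, that on ZIFL1 without mock 6 h replicate 1 or 2 or mock 12 h replicate 1 or 3, that on HMA3 without any 1 library but mock 6 h replicate 2 and that on ZIP3 without any 1 but mock 6 h replicate 1.

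**Figure D2:**
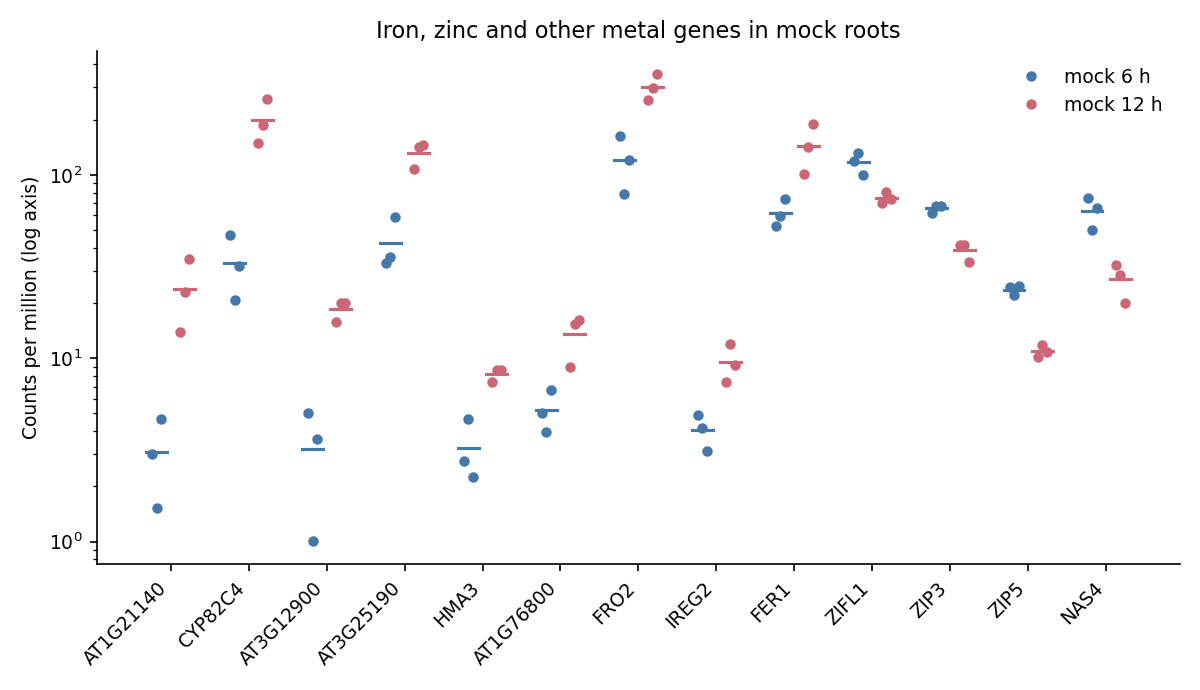
CPM on a log axis (y axis) of 13 iron, zinc and other metal genes (x axis) in the 3 mock libraries at 6 h and the 3 at 12 h, with points for libraries and short lines for group means. The first 9 genes rose and the last 4 fell, and in each the libraries of one time lay apart from those of the other. For CYP82C4, HMA3, FRO2, IREG2, FER1 and NAS4 that was a condition of being named.

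The nitrate carrier NRT2.1 and its partner NRT3.1 fell. NRT2.1, the main high-affinity nitrate carrier of roots, stood at 439, 540 and 456 CPM at 6 h and at 87.1, 82.5 and 105 CPM at 12 h. Every library at 12 h was far below every library at 6 h, and the log2 fold change was -2.39 ± 0.34 (edgeR adjusted p = 0.000804). It passed without each library in turn, with adjusted p between 0.00251 and 0.0151. Before treatment NRT2.1 was at 1.495 to 4.83 CPM and at 24 h at 61.0 to 125 CPM, so 6 h was its highest mock time. With AtCEP5 it fell by 2.46 on the log2 scale (edgeR adjusted p = 0.000708), and the test of the difference gave an adjusted p of 0.997. Reads of NRT2.1 may be shared with its close copy NRT2.2, which had too few reads to be tested here.

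NRT3.1, the partner protein of NRT2.1, stood at 485, 593 and 540 CPM at 6 h and at 280, 304 and 282 CPM at 12 h, a log2 fold change of -0.90 ± 0.19 (edgeR adjusted p = 0.0261). The groups did not overlap, but the call was lost without mock 6 h replicate 2 or 3 or any 1 of the mock 12 h replicates. NRT1.1, the dual-affinity carrier and nitrate sensor, stood at 957 to 992 CPM and then at 529 to 631 CPM, also without overlap, yet its log2 difference of -0.71 ± 0.26 did not pass (edgeR adjusted p = 0.283). The nitrate reductase NIA2 was at 519 to 541 CPM and then at 321 to 440 CPM (-0.55, adjusted p = 0.471), and its companion NIA1 at 46.7 to 71.9 CPM and then at 45.1 to 114 CPM (0.27, 0.861).

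Of the 24 nitrogen genes tested, 2 fell, NRT2.1 and NRT3.1, and none rose at this threshold, against 0.476% and 0.246% of all genes. At an unadjusted p under 0.05 there were 10 of the 24, against 2210 of all 19938. The list's median log2 fold change was -0.35 against 0.011 for all genes, and its summed level was 5841 to 6375 CPM at 6 h and 4386 to 4473 CPM at 12 h. The sum is carried by the most abundant members, NRT1.1 among them. With a fit of the 6 mock libraries alone the list had 7 calls, 1 higher and 6 lower, and with DESeq2 3. The 2 calls became 1 without mock 6 h replicate 2 or 3 or mock 12 h replicate 1 or 2. With AtCEP5, 1 gene of the list rose and 3 fell. Outside the list, AT4G32950, annotated as a protein phosphatase of the PP2C family, fell from 21.05, 25.2 and 15.8 CPM to 3.18, 4.80 and 4.69 CPM (-2.28 ± 0.33, edgeR adjusted p = 0.000821). AT2G43500, of the RWP-RK family to which the NLP regulators of nitrate response belong, fell by 0.95 on the log2 scale (0.0393) and lost its call without any 1 of the 6 libraries.

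Genes of dehydration and abscisic acid response fell or did not pass. Of 16 on the list that were tested, KIN1, RD29B and CYP707A1 fell and none rose, with a list median of -0.23. Among all genes 0.476% fell and 0.246% rose. In AtCEP5 roots no gene of the list passed in either direction, and its median was -0.02. KIN1, a small cold- and drought-induced protein, stood at 250, 369 and 240 CPM at 6 h and at 85.4, 93.7 and 78.2 CPM at 12 h. The groups were far apart, and the log2 fold change was -1.74 ± 0.33 (edgeR adjusted p = 0.0132). Its close copy KIN2 stood at 576, 901 and 721 CPM and then at 437, 315 and 357 CPM without passing (-0.99 ± 0.35, 0.251), and reads of the pair may be shared. CYP707A1, an enzyme that breaks down abscisic acid, fell from 30.2, 29.2 and 25.8 CPM to 16.4, 16.0 and 16.4 CPM (-0.80 ± 0.16, 0.0203).

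RD29B, a gene used as a reporter of abscisic acid response, was rare, with 37 reads in the 3 libraries at 6 h and 5 in those at 12 h. Its log2 fold change of -3.06 ± 0.65 (edgeR adjusted p = 0.029) ranged from -3.73 to -0.46 over the alternatives. Most of its reads at 6 h came from mock 6 h replicate 1, at 2.005 CPM against 0.709 and 0.518 CPM. In the AtCEP5 roots the log2 difference had the other sign, at 1.05 (adjusted p = 0.505), and the test of the difference gave an adjusted p of 0.18. Its window is shown because it is known for abscisic acid response elements. It covers the 250 bases upstream of the gene start on the plus strand of TAIR10.1, chr5:21236771-21237020, and capitals mark matches to ACGTGGC or ACGTGTC on either strand, the letters searched for that element.
RD29B: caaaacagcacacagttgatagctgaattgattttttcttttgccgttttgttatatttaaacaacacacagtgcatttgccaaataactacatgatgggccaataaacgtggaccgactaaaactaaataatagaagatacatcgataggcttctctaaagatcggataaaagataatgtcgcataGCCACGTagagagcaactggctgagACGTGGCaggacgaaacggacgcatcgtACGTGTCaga

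RD29B had 3 such matches. At least 1 was present in 7.11% of the windows of all tested genes, in 6.12% of those that rose and in 6.32% of those that fell. The G-box CACGTG, which overlaps that element where the letters run on, was present in 7.26%, 6.12% and 5.26%. Of the other called list members, CYP707A1 held 1 match to the element and 1 G-box in its window and KIN1 held neither. GolS3 held 2 matches and 1 G-box. The share of windows with either motif was no higher in the genes that fell than in all genes.

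The list counts for dehydration changed when libraries were left out. The log2 fold changes of 2 of the 3 genes moved little over all alternatives, from -1.85 to -1.51 for KIN1 and from -0.865 to -0.665 for CYP707A1. The 3 calls became 1 without mock 6 h replicate 1 and 0 without mock 6 h replicate 2 or any 1 of the mock 12 h replicates. Among called genes outside the list, 4 with related annotations are given here, without a test of the group. The LEA family gene AT3G02480 stood at 12.2, 17.0 and 8.90 CPM at 6 h and at 1.09, 1.18 and 0.769 CPM at 12 h, a log2 fold change of -3.64 ± 0.47 (edgeR adjusted p = 0.000272), and passed under each alternative tried. PYL5, an abscisic acid receptor, fell from 169, 200.2 and 228 CPM to 117 CPM in all 3 libraries (-0.77 ± 0.18, 0.0396). ABR1, a transcription factor that represses abscisic acid response, fell by 1.33 on the log2 scale (0.0269), and GolS3, a galactinol synthase induced by cold, by 1.31 (0.038). The calls on PYL5 and GolS3 were lost without any 1 of the 6 libraries, and that on ABR1 without mock 6 h replicate 1 or 2 or mock 12 h replicate 2 or 3.

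The lipid-transfer-like proteins, small secreted proteins of the cell wall and of lipid barriers, had 3 members that fell and none that rose among 42 tested. The median log2 fold change of the 42 was -0.14, and among all genes 0.476% fell and 0.246% rose. AT3G53980 stood at 279, 298 and 293 CPM at 6 h and at 85.9, 94.9 and 85.5 CPM at 12 h. AT4G33550 stood at 86.6, 98.8 and 76.6 CPM and then at 28.3, 20.2 and 30.4 CPM, and AT2G37870 at 13.9, 16.0 and 9.16 CPM and then at 3.03, 2.44 and 2.098 CPM. In all 3 genes the times were wide apart. The log2 fold changes were -1.71 ± 0.20, -1.73 ± 0.17 and -2.37 ± 0.30, with edgeR adjusted p of 0.000156, 1.05e-05 and 0.000272, and each passed under each alternative tried. All 3 were higher before treatment than at 6 h, AT3G53980 at 769 to 815 CPM, AT4G33550 at 174 to 287 CPM and AT2G37870 at 76.1 to 97.6 CPM. In the AtCEP5 roots AT3G53980 and AT2G37870 fell by 1.18 and 1.58 on the log2 scale, and AT4G33550 had a log2 difference of -0.72 that did not pass (edgeR adjusted p = 0.0594).

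Outside these groups, UMAMIT29, an exporter of amino acids, had the smallest adjusted p of the genes that rose. It stood at 5.93, 7.19 and 5.10 CPM at 6 h and at 21.2, 23.7 and 26.6 CPM at 12 h, a log2 fold change of 1.98 ± 0.19 (edgeR adjusted p = 1.05e-05). The groups did not overlap, the level before treatment was 15.05 to 23.8 CPM, and the AtCEP5 roots showed a rise of 1.1 on that scale (0.00204). OZF2, a zinc finger protein, rose from 1.25, 0.506 and 1.47 CPM to 4.35, 3.47 and 4.20 CPM (1.86 ± 0.36, 0.0166), a call lost without mock 6 h replicate 1 or 2 or mock 12 h replicate 1 or 3. The serine carboxypeptidase-like gene scpl31 rose from 15.5, 7.90 and 11.8 CPM to 26.4, 29.1 and 29.0 CPM (1.26 ± 0.23, 0.0103), a call lost without mock 6 h replicate 2. The phloem lectin gene PP2-A1, which like ABR1 and ACL5 overlaps a gene on the opposite strand, rose by 1.003 on the log2 scale (0.0037), while its relative PP2-A5 fell by 1.81 (0.0227) and lost its call without mock 6 h replicate 2 or any 1 of the mock 12 h replicates. P1R1 fell by 1.28 (0.0268) and lost its call without the same 4 libraries.

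**Figure D3:**
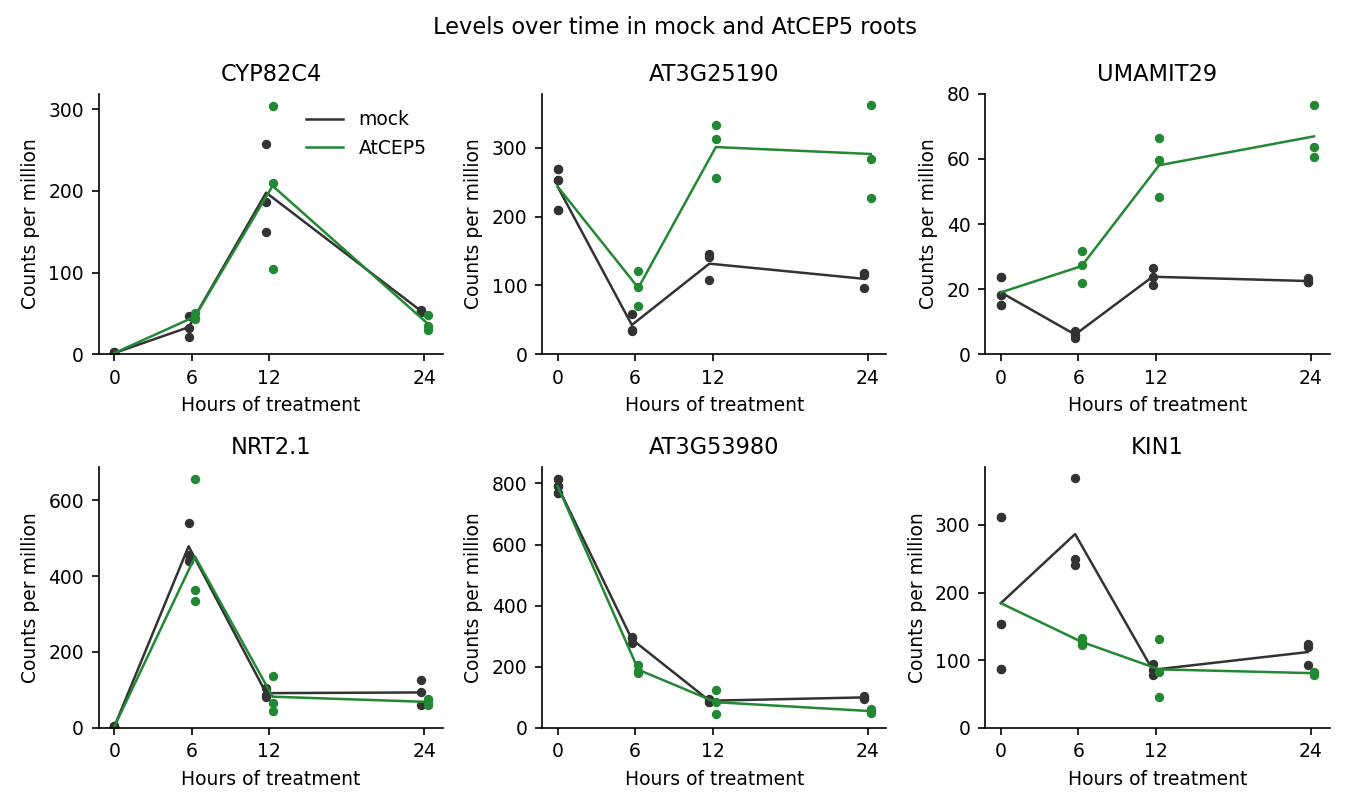
CPM (y axis) of 6 genes against hours of treatment (x axis), with points for libraries and lines through group means, black for mock and green for AtCEP5, both starting from the same libraries before treatment. Between 6 h and 12 h the mock level of CYP82C4, AT3G25190 and UMAMIT29 rose and that of NRT2.1, AT3G53980 and KIN1 fell.

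Both sulfate transporter calls were at low levels. SULTR1;3, a high-affinity sulfate transporter of the phloem, stood at 7.68, 6.28 and 6.83 CPM at 6 h and at 1.71, 1.33 and 1.82 CPM at 12 h (-2.09 ± 0.40, edgeR adjusted p = 0.0135). SULTR4;2, which releases sulfate from the vacuole, stood at 3.84, 5.27 and 6.39 CPM and then at 10.3, 10.1 and 10.1 CPM (0.97 ± 0.23, 0.049), and it overlaps genes on both strands. The libraries of the times were apart in both genes. The other 10 of the 12 sulfur genes tested did not pass, and neither did SULTR1;3 or SULTR4;2 without mock 6 h replicate 1 or 2 or any 1 of the mock 12 h replicates.

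The gene with the largest fitted rise was AT4G33720, annotated as a member of the CAP superfamily of secreted pathogenesis-related proteins. It had 3 reads in the 3 mock libraries at 6 h and 106 at 12 h, a ratio of 29.0 scaled for depth, with a counting interval of 9.66 to 143 at 95% that covers counting error only. Its level at 24 h was 39.8, 25.9 and 11.2 CPM, and in the AtCEP5 roots it was at 4.92 to 9.32 CPM at 6 h and 202 to 208 CPM at 12 h. The gene with the largest fall, AT1G75945, an uncharacterized protein, stood at 16.0, 6.28 and 15.7 CPM at 6 h, at 0.233, 0.369 and 0.280 CPM at 12 h and again at 8.12 to 12.0 CPM at 24 h. Its log2 fold change was -5.39 ± 0.91 (edgeR adjusted p = 0.00509), and in the AtCEP5 roots it had a log2 difference of -0.39 (0.936). The call on AT4G33720 was lost without mock 6 h replicate 1 or 2 or mock 12 h replicate 2, and that on AT1G75945 without mock 12 h replicate 3.

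Of the circadian clock genes 1 passed. Of 13 morning genes tested, LNK4 fell and none rose, with a list median of -0.37 in mock and 0.49 in AtCEP5 roots, where RVE8 passed. Of 12 evening genes none passed, the smallest adjusted p being 0.0673, and the medians were 0.08 and -0.14. At an unadjusted p under 0.05 there were 3 morning and 2 evening genes, against 2210 of all 19938 genes, and DESeq2 called 2 evening genes. LNK4, of a family of transcriptional coactivators in the clock, stood at 6.01, 3.65 and 2.85 CPM at 6 h and at 0.854, 0.961 and 0.699 CPM at 12 h (-2.31 ± 0.43, edgeR adjusted p = 0.0128). Its call was lost without mock 6 h replicate 1 or any 1 of the mock 12 h replicates, and it overlaps a gene on the same strand.

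CCA1 stood at 8.77, 9.42 and 5.10 CPM at 6 h and at 5.13, 4.66 and 2.24 CPM at 12 h, so the groups overlapped at 1 library (log2 difference -0.96 ± 0.33, edgeR adjusted p = 0.241). LHY stood at 19.5, 13.1 and 8.04 CPM and then at 13.4, 6.21 and 5.10 CPM, with more overlap (-0.72 ± 0.36, 0.47). In the AtCEP5 roots the log2 differences had the other sign, at 1.11 ± 0.34 for CCA1 (0.176) and 0.83 ± 0.36 for LHY (0.452). RVE8, a morning activator, rose there by 1.18 (0.017) and had a log2 difference of -0.18 in mock (0.82). The test of the difference between treatments did not pass for CCA1 (edgeR adjusted p = 0.548), for RVE8 (0.596) or for LHY (0.995). FKF1, a blue-light receptor of the evening, was at 11.7 to 20.4 CPM at 6 h and 8.31 to 10.05 CPM at 12 h (log2 difference -0.80 ± 0.21, edgeR adjusted p = 0.0831). Of the other evening genes, TOC1 was at 63.9 to 75.2 CPM and then at 73.5 to 76.7 CPM, GI at 53.7 to 89.6 CPM and then at 52.8 to 58.2 CPM, and BOA, a relative of LUX, at 6.01 to 9.07 CPM and then at 9.94 to 13.2 CPM.

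**Figure D4:**
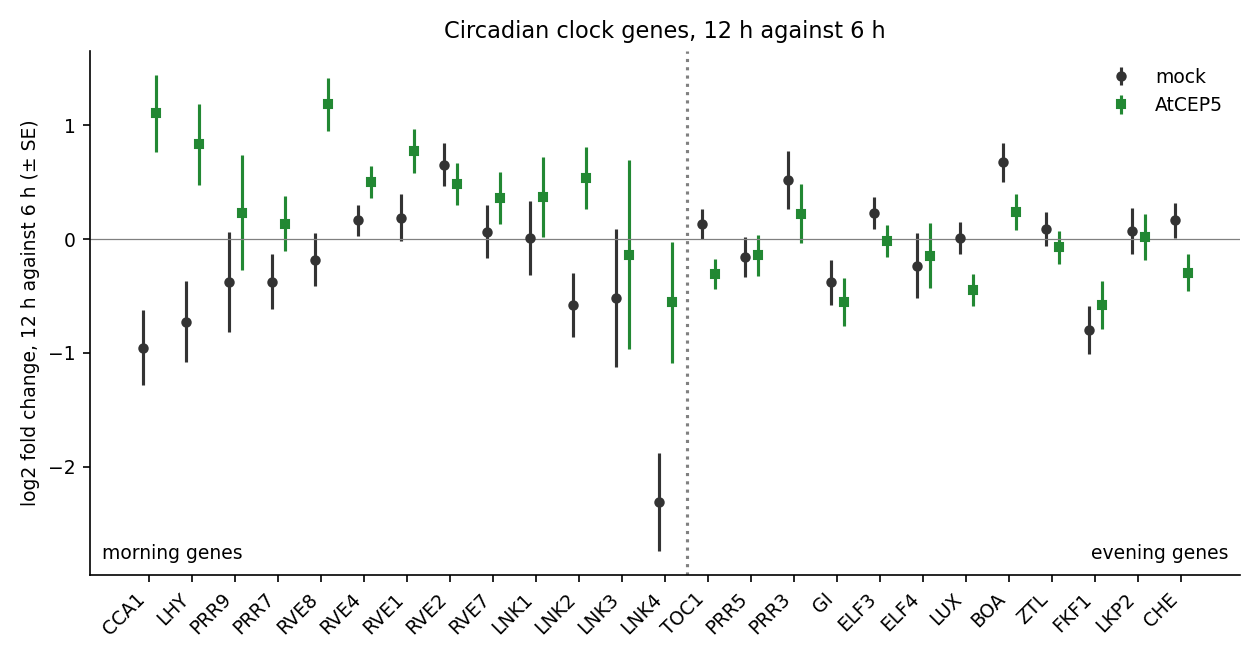
Fitted log2 fold change of 12 h against 6 h, with its standard error (y axis), of 13 morning and 12 evening clock genes (x axis), in mock (circles) and in AtCEP5 roots (squares). The mock value of LNK4, at -2.31, stands below the others, and CCA1 and LHY lie on opposite sides of 0 in the treatments.

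Across all 36 gene lists, 436 genes were tested, of which 6 rose and 9 fell, against 0.246% and 0.476% of all genes. Of the lists, 28 had no call. The lists without a call held 314 tested genes, of which 43 had an unadjusted p under 0.05, against 2210 of all 19938 genes. Those without a call included auxin response, with 25 genes tested and a median of -0.08, cytokinin, with 25 and 0.05, and cell division, with 25 and 0.04. Lists without a call whose medians lay farther from that of all genes included dark and sugar starvation, at 0.51 over 16 genes with 4 at an unadjusted p under 0.05, heat, at -0.49 over 6 genes with 2, and touch and cold regulators, at -0.42 over 13 genes with 2. Their medians in AtCEP5 roots were 0.64, -0.62 and -0.11. No root meristem, root cap, root hair, endodermis, suberin or phloem marker passed. Their summed levels overlapped between times, at 170 to 209 and 180 to 213 CPM for the meristem and at 255 to 313 and 225 to 298 CPM for the endodermis, except for suberin, at 1069 to 1287 CPM and then 944 to 1055 CPM, and phloem, at 38.7 to 41.8 CPM and then 43.1 to 59.6 CPM. Among single members, the auxin importer LAX2 rose from 16.7, 17.2 and 19.8 CPM to 31.0, 24.7 and 25.5 CPM (0.59 ± 0.14, edgeR adjusted p = 0.0396). ACL5, a thermospermine synthase of developing xylem, rose by 0.63 (0.031), and SEX4, a phosphatase of starch breakdown, fell by 0.82 (0.0369). These 3 calls were each lost without any 1 of the 6 libraries and with a replicate block. LAX2 also did not pass in the fit of the 6 mock libraries alone, nor SEX4 with limma on log2 FPKM.

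The locus of the applied peptide, AT5G66815, stood at 19.2, 16.4 and 17.3 CPM at 6 h and at 9.55, 7.46 and 8.88 CPM at 12 h. The groups did not overlap, yet the log2 difference of -1.03 ± 0.27 did not pass (edgeR adjusted p = 0.0758). It passed in 4 of 16 alternatives, DESeq2 and the fit of the 6 mock libraries alone among them. Without any 1 of the 6 libraries it did not pass. ATC, a relative of TERMINAL FLOWER 1, had a log2 difference of -0.47 (0.447), and the cytokinin response regulator ARR5 one of -0.27 (0.658). The auxin-induced repressor IAA19 was at 6.93 to 8.55 CPM and then at 6.72 to 7.998 CPM. The starvation genes ASN1 and SEN1 were at or below 2.59 CPM in all 6 libraries.

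The same time step in AtCEP5 roots called 134 genes (0.672%), 63 higher (0.316%) and 71 lower (0.356%) at 12 h. Leaving out AtCEP5 6 h replicate 1, 2 or 3 gave 24, 36 and 86 genes, and leaving out AtCEP5 12 h replicate 1, 2 or 3 gave 50, 33 and 146. Of the 49 genes raised in mock 48 were also higher in AtCEP5, and of the 95 lowered 91 were lower. Over all genes tested 60% had the same sign in both treatments. The calls had 53 genes in common, 17 higher and 36 lower, which is 36.8% of the mock calls and 39.6% of the AtCEP5 calls, and no gene was called in opposite directions. Both sets of calls came from the same fit, with a shared estimate of spread for each gene, so they are not fully separate. The median log2 fold change of the genes raised in mock was 0.97 in mock and 0.56 in AtCEP5, and that of the genes lowered in mock was -0.91 and -0.65. The mock values are the ones by which these genes were chosen, so a smaller median in the other treatment is no measure of a weaker change there.

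The difference of the time change between treatments was tested directly. It passed for 1 of 19938 genes (0.00502%), OSM34, an osmotin-like protein of the thaumatin family, and 756 genes had an unadjusted p under 0.05. OSM34 stood at 27.6, 36.5 and 36.3 CPM at 6 h and at 40.5, 33.6 and 34.4 CPM at 12 h in mock roots. In AtCEP5 roots it stood at 41.8, 41.9 and 47.1 CPM and then at 245, 205 and 185 CPM. The mock libraries of the times overlapped while those of AtCEP5 were far apart, and the log2 changes were 0.11 ± 0.17 and 2.28 ± 0.18 (difference -2.17 ± 0.25, edgeR adjusted p = 0.000222). The next smallest adjusted p of a difference was 0.18. OSM34 is not among the 144 genes, so none of those can be called particular to mock roots.

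**Figure D5:**
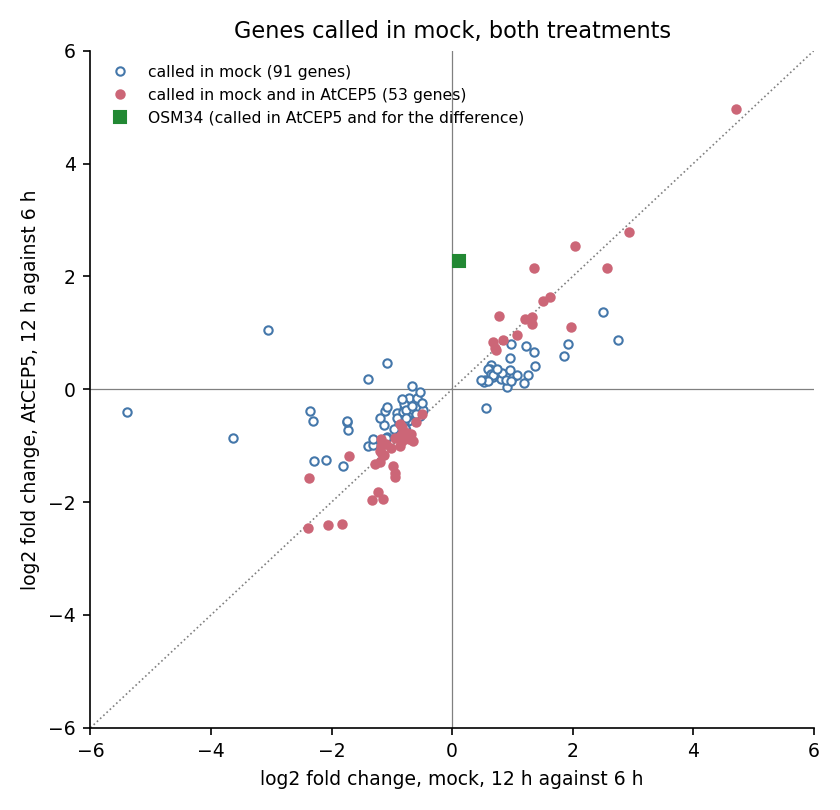
Log2 fold change of 12 h against 6 h in mock roots (x axis) and in AtCEP5 roots (y axis) for the 144 genes called in mock and for OSM34, with filled points for the 53 called in both treatments and a dotted line where the values are equal. Of the 144 genes 139 had the same sign in both, and OSM34 stands apart at 0.11 and 2.28.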

How the data were processed

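For 21 poly-A libraries of root RNA the authors deposited gene-level read counts and, separately, FPKM values. STAR 2.7.8a, StringTie 2.1.3 and HTSeq were the tools, per the submitters' processing notes, while genome build and strand handling are not given. Of 32833 genes, 32548 were found by locus in TAIR10.1, whose RefSeq symbols and sequence were used. The deposited FPKM values were 10 times those recomputed from the counts and were divided by 10.

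The counts were tested with edgeR 4.0.16 in R 4.3.3 (quasi-likelihood test, TMM scaling, edgeR's filter by group). One model of 7 groups took in all 21 libraries, leaving 14 residual degrees of freedom, with Benjamini-Hochberg adjustment over 19938 genes. CPM are counts scaled with TMM factors, and fold changes are fitted, with their standard error (SE). The alternatives used limma 3.58.1, DESeq2 1.42.0, other filters and scalings and each library left out. On simulated counts with known changes, 68% of 2-fold and 100% of 4-fold changes were recovered. That simulation gave every gene the same spread and changed no gene with few expected reads.

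Genes were named by a rule: the 8 largest passing changes each way with a mean of at least 1 CPM, a symbol and groups that did not overlap, all clock genes, up to 3 passing genes of each list, and a few set genes. Other genes named were chosen after their values were seen, as stated beside them. The 36 lists held 466 members with a name in the reference, and 14 others were left out. The lists and members were chosen with earlier results of these data known.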

Additional observations from a re-analysis of the deposited data

Results flagged for a closer look

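One result differed between the treatments by a test of the difference itself. The log2 change of OSM34 from 6 h to 12 h was lower in mock than in AtCEP5 roots by a difference of -2.17 ± 0.25 (edgeR adjusted p = 0.000222), with 0.11 in mock and 2.28 in AtCEP5 roots. The difference passed in each of 22 alternatives, the fits without each of the 12 libraries included, and ranged from -2.32 to -2.05. Mock 6 h replicate 2 and AtCEP5 12 h replicate 3 had the highest shares of ribosomal RNA reads, at 2.196% and 1.962%, and the difference passed without either of them.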

How the results depend on the processing

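For mock 12 h against 6 h, 144 genes were called, 49 higher and 95 lower. Between 30 and 94 were called without each of the 6 libraries, 353 when the 6 mock libraries were fitted alone and 330 with DESeq2, whose calls included all 144. The counts under other size factors (138), no filter (190), at least 1 CPM in 3 libraries (144 of 19597 genes tested), no ribosomal RNA or organelle genes (137) and limma on log2 FPKM (131 and 137) were within 1.5 times of it. On log2 FPKM the median of all genes shifted to 0.081 with a pseudocount of 0.1 and 0.068 with a pseudocount of 1. For AtCEP5 12 h against 6 h, the 134 calls became 24 to 146 without each library, 206 with its own 6 libraries alone and 313 with DESeq2. The difference between treatments, 1 gene, became 8 with DESeq2 and 4 with limma at a pseudocount of 1, and OSM34 was among them in each.

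Replicate numbers did not pair the mock libraries, since same-numbered libraries at 6 h and 12 h had residual correlations of -0.105, 0.129 and -0.178. A replicate block gave 223 mock calls with the groups compared alone and 98 with all libraries. Both counts are below those of the same fits without the block, given above. For AtCEP5 the block gave 58 and 118 calls, and for the difference 1 and 1.

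The cause of these shifts was not tested. Genes under about 1 CPM, such as RD29B, rested on few reads. In simulated counts 68% of 2-fold changes were recovered with this number of libraries.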

Other observations

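Other genes with shared annotations also fell or rose, and were chosen after their values were seen. IMS2 and IPMI1, enzymes of the methionine chain elongation that supplies aliphatic glucosinolates, fell together. IMS2 stood at 523, 452 and 477 CPM at 6 h and at 271, 303 and 271 CPM at 12 h (-0.78 ± 0.18, edgeR adjusted p = 0.0458). IPMI1 stood at 168, 164 and 173 CPM and then at 93.8, 115 and 98.4 CPM (-0.72 ± 0.16, 0.0393). The groups did not overlap in either gene, and both calls were lost without any 1 of the 6 libraries. The glutathione transferases GSTU24 and GSTU25 fell by 0.89 and 0.92 on the log2 scale (edgeR adjusted p = 0.0112 and 0.0375), calls lost without mock 6 h replicate 2 or mock 12 h replicate 1 or 3 for GSTU24 and without any 1 library for GSTU25. Proteins with a chitinase insertion domain, enzymes known for action on chitin, fell in both members tested, AT4G19720 by 1.18 and ChiC by 0.77 (0.00382 and 0.049), and both also fell in AtCEP5 roots. The mock call on ChiC was lost without any 1 library but mock 6 h replicate 1. Of 13 thaumatin-like proteins 2 fell in each treatment, and of 19 dirigent-like proteins 2 fell in mock roots. Among all genes 0.476% fell in mock roots and 0.356% in AtCEP5 roots.

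Among the genes that rose, 4 that are annotated as enzymes acting on sugars or glycans are given here, which is not a full count of such genes. The beta-galactosidase BGAL2 stood at 4.84, 5.47 and 10.1 CPM at 6 h and at 13.4, 13.5 and 13.01 CPM at 12 h (0.96 ± 0.20, edgeR adjusted p = 0.0277). HGL1, a heteroglycan glucosidase, stood at 33.9, 28.9 and 26.6 CPM and then at 51.7, 55.3 and 49.7 CPM (0.81 ± 0.16, 0.0149). AT3G26720, of glycosyl hydrolase family 38, rose by 0.91 on the log2 scale (0.0128), and AT5G57655, of the xylose isomerase family, by 0.84 (0.0181). Only the last of these 4 also passed in AtCEP5 roots (edgeR adjusted p = 0.012), and the difference between treatments did not pass for any of them. The call on BGAL2 was lost without any 1 library but mock 6 h replicate 3 and when the groups compared were fitted alone, and that on AT5G57655 without any 1 library but mock 12 h replicate 3. HGL1 lost its call without mock 6 h replicate 2 or 3 or mock 12 h replicate 2, and AT3G26720 without mock 6 h replicate 2 or mock 12 h replicate 2 or 3.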
